A study of Rattus norvegicus with 4 samples.

Results

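The early microRNA (miRNA) response of rat primary chondrocytes to interleukin-1β (IL-1β) was read from 2 arrays, 1 of cells treated with 10 ng/ml IL-1β for 6 h and 1 of untreated cells taken at 0 h, which served as the control. These are 2 of the 4 arrays of a time series whose other samples had 12 h and 24 h of the same treatment. All cells were plated at 200000 per ml, and the labels give no strain, age, sex or passage for the rats or the cells. Every one of the 679 rat miRNA probes on the arrays was a candidate, and the 355 with signal above the empty spots at 6 h, in the control or on both arrays were compared. No group had a second array, so no difference could be set against a spread between cultures and no test was possible. The untreated cells were collected only at 0 h, so an effect of IL-1β and an effect of 6 h in culture cannot be told apart.

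A miRNA is a short RNA cut from one arm of a hairpin precursor. Its seed, bases 2 to 8, pairs with messenger RNAs and lowers their translation or stability, and miRNAs with the same seed share many targets. The opposite arm of a hairpin, marked here with a star as on the array, is often degraded but can accumulate too. Chondrocytes make and maintain cartilage matrix, and IL-1β, a cytokine of inflamed joints, activates NF-κB in them, raises matrix-degrading proteases and lowers matrix synthesis. miR-146a is a known NF-κB target that in turn represses adaptors of the IL-1 receptor pathway. miR-140 and miR-455 are enriched in cartilage.

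Each probe had 5 spots per array. Spot intensities are given below in the scanner's linear units as deposited, with the median of the empty spots still in them, and each ± beside a change is the standard error from the 5 spots of each array, which covers spot-to-spot error only. Levels were put on a common log2 scale by quantile normalization, and a miRNA counted as higher or lower where its log2 change, 6 h minus control, was at least 1 in size and more than 2 times its spot error. Folds are on this normalised scale and need not equal the ratio of the scanner units, since background and the distribution of the arrays differ.

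Of the 355 miRNAs compared, 13 passed this rule, 5 higher (1.41%) and 8 lower (2.25%) at 6 h than in the control. miR-365 had the largest rise, miR-29c and miR-10b rose by a little over 2-fold, and miR-221* and miR-322 passed only through measured control levels that lay below detection. miR-290 and miR-365* had the largest falls, and miR-1249, miR-377, miR-3593-3p, miR-3573-3p, miR-672 and miR-455* were lower as well. The sequences of these 13 follow as the array annotation gives them, since probe, seed and base composition all bear on how their values can be read. Capitals mark the seed, bases 2 to 8 from the 5′ end. The first 5 were higher at 6 h.
miR-365: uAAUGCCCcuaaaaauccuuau
miR-29c: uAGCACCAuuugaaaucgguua
miR-10b: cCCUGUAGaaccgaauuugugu
miR-322: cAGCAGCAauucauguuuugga
miR-221*: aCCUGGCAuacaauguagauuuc
The next 8 were lower at 6 h.
miR-290: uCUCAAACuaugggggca
miR-365*: gAGGGACUuucaggggc
miR-1249: aCGCCCUUcccccccuucuuca
miR-377: uGAAUCACacaaaggcaacuuuu
miR-3593-3p: cUUCAACCuuaagggggccuca
miR-3573-3p: uUCCUAACucugcccccucccau
miR-672: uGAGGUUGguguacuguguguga
miR-455*: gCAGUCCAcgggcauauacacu
No seed recurs among the 13. Several of the 8 hold a run of 1 base, with 5 or more G in miR-290 and miR-3593-3p and 5 or more C in miR-1249 and miR-3573-3p.

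All 13 matched a RefSeq mature miRNA of the rat assembly GRCr8 letter for letter. miR-365 (chr10:65184271-65184292) and miR-365* (chr10:65184231-65184247) are the 3′ and 5′ arms of one hairpin, Mir365b, on the plus strand. miR-10b (chr3:80035886-80035907, plus strand) lies within the span of Hoxd4, a homeobox gene. miR-29c (chr13:109099412-109099433, plus strand) lies beside a copy of miR-29b, in the span of a long non-coding RNA gene. miR-221* (chrX:6023206-6023228, plus strand) and miR-322 (chrX:137726198-137726219, minus strand) also lie within annotated long non-coding RNA genes. miR-290 (chr1:74880106-74880123, minus strand) falls in the span of Nlrp12, and miR-1249 (chr7:117955547-117955568, minus strand) in that of Kiaa0930. miR-455* (chr5:81704881-81704902, plus strand) lies within Col27a1, a fibrillar collagen gene of cartilage, miR-3573-3p (chrX:68299322-68299344, plus strand) within Efnb1 and miR-672 (chrX:73192351-73192373, minus strand) within Nexmif. miR-377 (chr6:134576498-134576520, plus strand) belongs to the imprinted Dlk1-Dio3 region. For miR-3593-3p (chr6:78987770-78987791, minus strand) the gene table lists no gene across it. The table gives gene spans without strand or exons, so whether a miRNA is intronic or exonic in such a gene was not read.

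The arrays differed most in their background. The 261 empty spots had a median of 46.2 units at 6 h and 122.6 units in the control, so that the detection limit, the 95th percentile of the empty spots, was 54.2 units at 6 h and 151.3 units in the control. All 187 miRNAs detected in the control were also detected at 6 h, and 168 more were detected at 6 h alone. None of those 168 read above the control's limit at 6 h, their highest mean being 133.9 units, and with that limit applied to both arrays 136 miRNAs would have been detected at 6 h. With the empty-spot median taken off each array first, the control's remaining limit of 28.8 units would have left 208. The part of the background in the number of miRNAs seen was not tested. The 5 spots of a detected miRNA varied by a median of 11.9% at 6 h and 11.3% in the control (coefficient of variation). Levels of the 355 miRNAs ran together on the 2 arrays (r = 0.98 across miRNAs, a description, since miRNAs of one array share its RNA and its normalization).

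Most of the profile differed little on the normalised scale. The median log2 change was 0.03, with quartiles of -0.15 and 0.28, and 302 of the 355 (85.1%) lay within 0.5 of 0. Quantile normalization gives the arrays the same distribution, so a small median change was partly set by the method. Among the 187 miRNAs detected on both arrays the median was -0.01, and 3 were higher and 8 lower (5.88% in either direction). Of the 187, 144 (77.0%) lay within 0.5 of 0, a lower share than among all 355. In these 187 the normalised spots of the 2 arrays did not overlap for 19 miRNAs that read higher at 6 h (10.2%) and 25 that read lower (13.4%), so separate spots were more common than 2-fold changes.

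**Figure D1:**
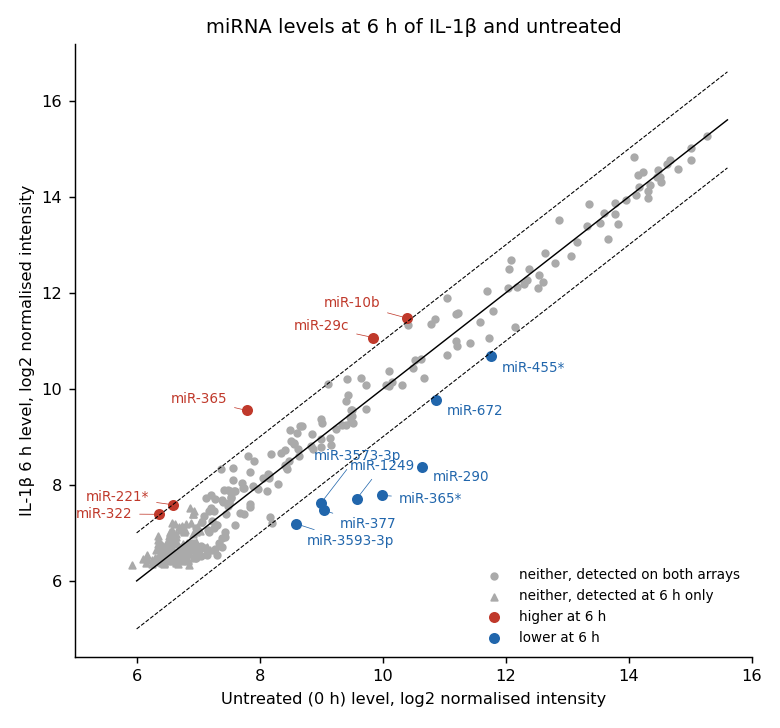
Normalised log2 level at 6 h of IL-1β (vertical axis) against the untreated control (horizontal axis) for the 355 miRNAs compared, each point being the mean of 5 spots on each array. The solid line marks equal levels and the dashed lines a 2-fold difference. The 5 red points are the miRNAs that were higher at 6 h and the 8 blue points those that were lower, most of them at low or middle levels, while the brightest miRNAs lie close to the solid line.

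The split of 5 higher and 8 lower depended on how the arrays were scaled. It became 11 and 18 after scaling to the median of miRNAs seen on all arrays, 17 and 7 after scaling to the calibration spots, 14 and 11 without normalization and 22 and 5 with the unnormalised changes centred on their median. The median change of the compared miRNAs was -0.38, -0.19, -0.32 and 0 under these scalings, and single changes are to be read against it. In the values the authors deposited the split was 5 and 6. These counts did not hold the same miRNAs throughout. Of the 13 calls, 9 were kept in the authors' values, where no spot error was used. Under median scaling, under calibration scaling and without normalization 9 were kept, and after centring 8. Both arms of Mir365b, miR-3593-3p, miR-1249, miR-290 and miR-3573-3p kept their call in all 18 alternatives that give a value for a single miRNA. Some of the 18 could not end these calls. Those that only change the detection filter, or put in a level for undetected miRNAs, leave the values of these miRNAs as they are. The counts of alternatives below include such settings where they apply.

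miR-365, which in chicken chondrocytes is reported to respond to mechanical strain and to repress the histone deacetylase HDAC4, gave 745, 364, 671, 697 and 623 units in its 5 spots at 6 h, against 244, 177, 189.8, 241 and 246 units in the control. Every 6 h spot was above every control spot. As in any bulk sample, more cells with the miRNA and more of it per cell cannot be told apart, here and below. The change was 1.76 ± 0.23 on the log2 scale, a 3.39-fold rise, and 1.31 to 1.97 over the alternatives. The nearest probe at least 4 times brighter, that of miR-29a, is 10 single-base edits away.

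miR-29c, whose family represses transcripts of collagens and other matrix proteins, gave 2333, 1309, 1914, 2241 and 1842 units at 6 h, against 804, 498, 773, 658 and 581 units in the control. The spots did not overlap, and the rise was 2.33-fold (log2 1.22 ± 0.24). Its sequence is 1 edit from that of miR-29a, printed here with miR-29b to show how close the family's probes are.
miR-29a: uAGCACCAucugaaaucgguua
miR-29b: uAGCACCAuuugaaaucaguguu
The family did not move as one. miR-29a, the bright member, averaged 14687 units at 6 h and 11041 units in the control, with a log2 change of -0.02 ± 0.07. miR-29b averaged 233 units at 6 h and 198 units in the control, a change of 0.78 ± 0.16 that did not pass. How far the miR-29a RNA reaches the miR-29c probe was not tested. The call of miR-29c ended after correction for GC content, at 0.94.

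miR-10b, a miRNA of the HoxD cluster, gave 2626, 2328, 2315, 2147 and 2734 units at 6 h, against 852, 963, 818, 834 and 862 units in the control. The groups of spots were far apart and even, and the rise was 2.12-fold (log2 1.08 ± 0.11). It lay near the rule's limit and fell below it in 4 alternatives, the lowest being 0.97 in the authors' values. Its opposite arm miR-10b*, undetected in the control, read 88.1 units at 6 h and 133.9 units in the control (0.36 ± 0.13). miR-29c* and miR-672*, the opposite arms of miR-29c and of the lower miR-672, were also undetected in the control and had changes of 0.10 ± 0.07 and 0.23 ± 0.10, while miR-377* and miR-3573-5p were detected on neither array.

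miR-221*, the opposite arm of the growth-promoting miR-221, averaged 133.9 units at 6 h and 124.7 units in the control, and miR-322, called miR-424 in humans, averaged 114.9 units at 6 h and 105.6 units in the control. Their scanner units overlapped on the 2 arrays, and the changes after quantile normalization were 1.0003 ± 0.05 for miR-221* and 1.03 ± 0.14 for miR-322. As the control did not detect either, miR-221* was at least 1.60-fold higher and miR-322 at least 1.40-fold higher on that scale, both bounds under 2-fold, and these bounds hold for that scale alone: after median scaling the log2 changes were 0.25 for miR-221* and 0.31 for miR-322. Their calls ended in 12 and 9 of 17 alternatives. The other arms of both hairpins were detected on both arrays, miR-221 with a change of 0.07 ± 0.10 and miR-322* with 0.06 ± 0.16.

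miR-146a was the miRNA closest to the rule without passing it. Its sequence is shown with that of miR-146b because they share a seed and differ toward the 3′ end.
miR-146a: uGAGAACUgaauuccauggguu
miR-146b: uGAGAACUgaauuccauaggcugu
miR-146a gave 1057, 948, 702, 903 and 967 units at 6 h, against 472, 457, 358, 455 and 522 units in the control. All 6 h spots exceeded all control spots, and the log2 change was 0.99 ± 0.14, a fold of 1.99. It was past the rule in 7 of 18 alternatives, among them no background correction and no normalization. miR-146b averaged 453 units at 6 h and 307 units in the control, with a change of 0.65 ± 0.16.

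**Figure D2:**
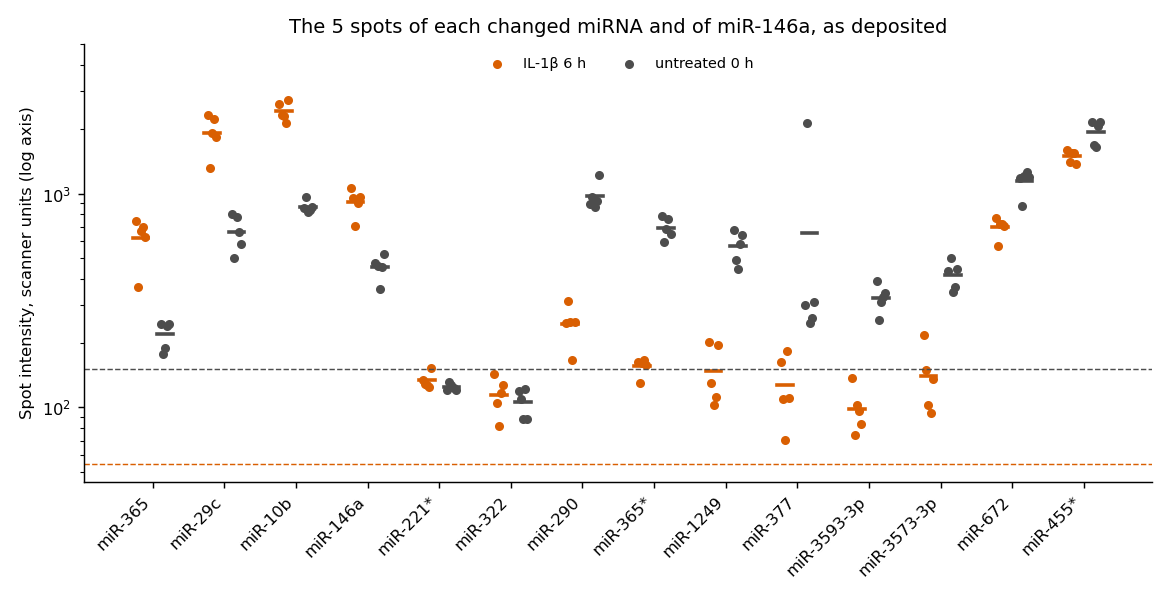
The 5 spots of each of the 13 changed miRNAs and of miR-146a, in scanner units as deposited on a log axis, with 6 h of IL-1β (orange) left of the untreated control (grey) and a bar at each mean. The dashed lines mark each array's detection limit, 54.2 units at 6 h and 151.3 units in the control. The spots of miR-221* and miR-322 overlap in these units, and 1 control spot of miR-377 stands far above the other 4.

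Among the falls, miR-290, whose cluster is abundant in mouse embryonic stem cells, gave 249, 316, 249.98, 166 and 249.7 units at 6 h, against 893, 959.7, 866, 921 and 1218 units in the control. No spot overlapped, and the level was 4.77-fold lower (log2 -2.25 ± 0.17). It was the 1 member of its cluster that the control detected. Of the 8 listed probes of that cluster, 4 were compared, and the other 3 of these, seen at 6 h alone, reached at most 0.34.

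miR-1249 averaged 149 units at 6 h and 566 units in the control (log2 -1.87 ± 0.27). miR-3593-3p averaged 98.6 units at 6 h and 326 units in the control (-1.40 ± 0.19). miR-3573-3p averaged 140.3 units at 6 h and 418 units in the control (-1.38 ± 0.22). In each of these 3 the 6 h spots lay wholly below the control spots, at 3.64-fold, 2.63-fold and 2.59-fold lower. At 6 h their means were under the 151.3 units that the control needed for detection.

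miR-672 averaged 697 units at 6 h and 1143 units in the control, 2.14-fold lower after normalization (log2 -1.10 ± 0.13). miR-455*, the 3′ arm of the cartilage-enriched Mir455 hairpin, gave 1589, 1409, 1548, 1540 and 1376 units at 6 h, against 2158, 1693, 1647, 2060.1 and 2160.5 units in the control. Its spots did not overlap, and the fall was 2.10-fold after normalization (-1.07 ± 0.08), while the ratio of the background-free units was 0.79. Both calls depended on scaling. They ended under loess, median scaling, calibration scaling and no normalization, miR-455* also in the authors' values and miR-672 also when quantile normalization left out the 12 h array, and with the unnormalised changes centred the values were -0.35 for miR-672 and -0.03 for miR-455*.

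The fall of miR-377 rested on 1 spot for its size. It gave 163, 109.1, 70.6, 183 and 110.4 units at 6 h, against 302, 2143, 249, 263 and 311 units in the control. All control spots were above all 6 h spots, but 1 of them was far above the rest, and the change was -1.57 ± 0.75. Without the spot farthest from the median on each array it was -1.01, and with the median of the spots -1.13, where the call ended because of the spot error. The call also ended in 3 other alternatives, among them the authors' values, which gave the smallest change, -0.65.

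On the other side of the rule, miR-296* had a change of -0.98 ± 0.23, miR-129-2* 0.96 ± 0.15, miR-329 0.93 ± 0.17, miR-352 0.85 ± 0.16 and miR-1224 -0.85 ± 0.11. miR-352 averaged 3511 units at 6 h and 1248 units in the control, and its sequence is 2 edits from that of let-7d, which was brighter on both arrays. miR-329 averaged 2311 units at 6 h and 877 units in the control. The 2-fold line thus runs through a continuous spread of changes.

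The arms of the Mir365b hairpin moved in opposite directions. miR-365* gave 163, 129.6, 162, 167 and 158 units at 6 h, against 781, 592, 680.2, 761 and 647 units in the control, and was 4.64-fold lower (log2 -2.21 ± 0.11). In the control miR-365* was the brighter of the pair, at 692 units beside 219 units for miR-365, and at 6 h miR-365 was the brighter, at 619.96 units beside 156 units for miR-365*, though levels of different probes are not measured on one scale. The change of the 5′ arm minus that of the 3′ arm was -3.98 ± 0.26. Of 20 hairpins with both arms detected on both arrays, it was the 1 with a gap of at least 1, the median gap being 0.31. The arms had opposite signs in 10 of these 20, so a difference of sign alone was common, and the next largest gap was that of Mir125a (0.84 ± 0.11), followed by Mir140 (0.72 ± 0.12) and Mir210 (0.66 ± 0.14).

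**Figure D3:**
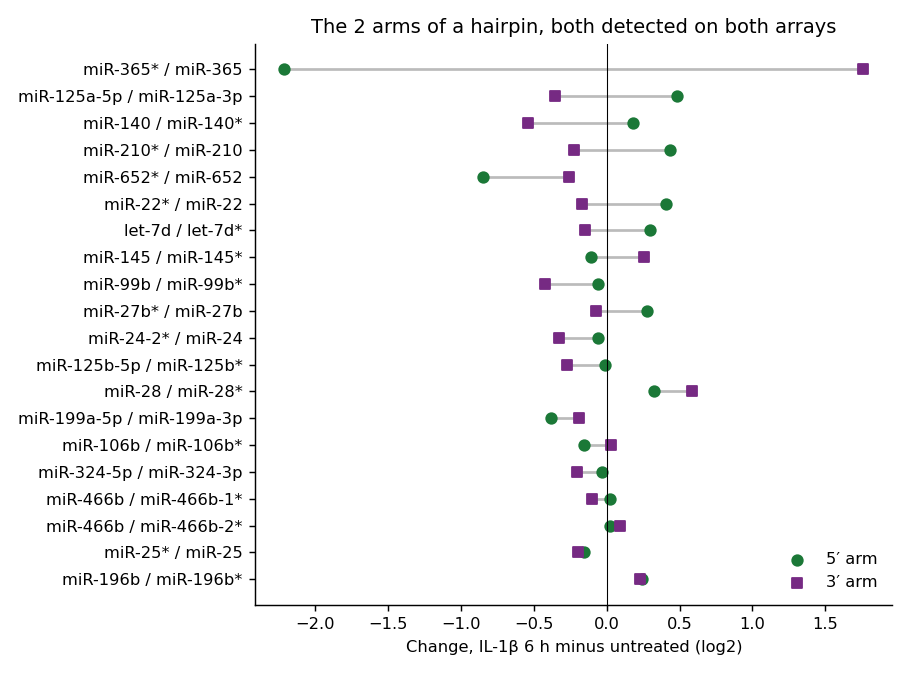
Log2 change at 6 h of the 5′ arm (green circles) and of the 3′ arm (purple squares) for the 20 hairpins with both arms detected on both arrays, 1 row per hairpin with a grey line between its arms and no error bars. Mir365b stands apart, with its 5′ arm at -2.21 and its 3′ arm at 1.76, while the arms of the other 19 differ by less than 1.

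The pathway and family lists were read by their counts and medians beside the 355 compared, whose median was 0.03 and of which 3.66% passed. With a median so near 0, signs were split almost evenly over the 355. The share above 0 was 84.2% for those below 40% GC and 17.3% for those at 60% GC or above, so sign counts of lists are to be read beside it. In the list of NF-κB and inflammation responsive miRNAs, 8 of 10 probes were compared and 0 passed in either direction. The median was 0.17, with 7 of 8 above 0. The other compared members had smaller values than miR-146a and miR-146b. miR-21, one of the brightest miRNAs of the arrays, had 0.01 ± 0.08, miR-221 and miR-222 had 0.07 each, and miR-132 had 0.27 ± 0.11. miR-212, undetected in the control, had 0.36, and miR-31 had -0.18. miR-155 had no probe of its name.

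In the cartilage list 4 of 5 probes were compared, and 1, miR-455*, was lower. miR-140*, the 3′ arm and the far brighter one of its hairpin, averaged 8449 units at 6 h and 8265 units in the control, a normalised change of -0.54 ± 0.07. The 5′ arm miR-140 averaged 148.8 units at 6 h and 193 units in the control (0.18 ± 0.10). miR-455, undetected in the control, had 0.14 ± 0.17, and miR-675 was detected on neither array. Both arms of miR-140 and miR-455* were thus present on both arrays. Of the 12 reported regulators of cartilage matrix and proteases, among them miR-27a, miR-27b, miR-145 and miR-22, 11 were compared, 0 passed, and the range was -0.38 to 0.26.

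Members of the let-7 family, which share the seed GAGGUAG and repress growth genes, all read above 0, with 8 of 8 between 0.03 and 0.79 and a median of 0.20. None passed the rule, and the median turned to -0.05 after GC correction and was 0.93 with the unnormalised changes centred. miR-98 averaged 1074 units at 6 h and 529 units in the control (0.79 ± 0.32), and let-7e 11341 units at 6 h and 4797 units in the control (0.66 ± 0.14). The brightest, let-7a, averaged 26558 units at 6 h and 19889 units in the control (0.10 ± 0.08). miR-98 differs from let-7a by 2 edits, and how far its probe reads let-7a was not tested.

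The miR-23, miR-27 and miR-24 clusters read the other way, with 0 of 5 above 0, a median of -0.21 and none passing, a direction that turned in 3 of 18 alternatives, up to 0.38 after centring. The mesenchymal list of miR-143, miR-145, miR-199a-5p, miR-199a-3p and miR-214 likewise had 0 of 5 above 0, with a median of -0.19 that turned in 4 of 18 alternatives. miR-143 was its lowest at -0.68, with 1966 units at 6 h and 1896 units in the control. Before normalization, the summed signal above the empty spots was higher at 6 h for both of these lists. It was 94199 units at 6 h and 88531 units in the control for the miR-23, miR-27 and miR-24 clusters. For the mesenchymal list it was 49151 units at 6 h and 42026 units in the control. Of the miR-30 family 4 of 5 were above 0 (median 0.34) and of the miR-181 family 3 of 4 (0.27), with 0 passing in both. The miR-17-92 group had a median of 0.18 over 10 compared members and 0.01 over the 8 detected on both arrays, and it turned below 0 in 3 of 18 alternatives. The miR-15/16 family, with miR-322 passing, had -0.01 over 6, and its median turned in 9 of 18. The miR-34 family had 0.05 over 2, turning in 7 of 18, and the group of miR-26, miR-148, miR-152 and miR-130 members 0.04 over 6, turning in 4 of 18.

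In the list of Hox cluster miRNAs with the miR-99, miR-100 and miR-125a-5p relatives, 1 of 11 compared, miR-10b, was higher, and the median was 0.24. miR-100 averaged 5950 units at 6 h and 2661 units in the control (0.61 ± 0.11), and miR-125b-5p, the brightest miRNA, had -0.01 ± 0.06. Of the 45 listed miRNAs of the imprinted Dlk1-Dio3 region 26 were compared, 1 passed, miR-377, and the median was 0.16, or -0.05 over the 13 detected on both arrays, with a turn below 0 in 7 of 18 alternatives. In the cluster of miR-193 and miR-365, miR-193 averaged 169 units at 6 h and 189.7 units in the control (0.41 ± 0.14), so the rise of miR-365 was not seen at that size in its neighbour.

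**Figure D4:**
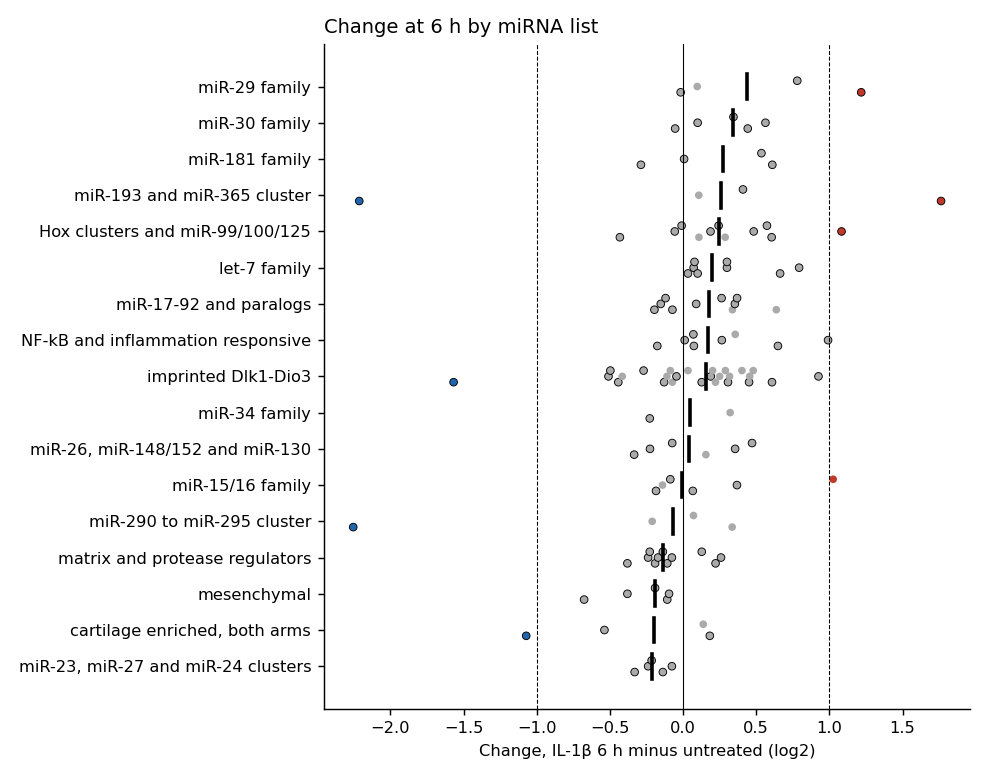
Log2 change at 6 h of every compared member of the pathway and family lists, 1 row per list, with a black bar at each median. A black edge marks a miRNA detected on both arrays, red and blue fill mark those higher and lower at 6 h, and the dashed lines mark 2-fold. Most members lie within 0.5 of 0, and the let-7 members all lie above 0.

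Sharing a seed did not fix the size of the change. Over 20 seeds with at least 2 members detected on both arrays, which cover 58 miRNAs, members had the same sign in 8. Their spread was at least 0.5 in 11, with a median of 0.53. The groups held 2 to 8 members, and a spread can only widen as members are added. No such figures were computed for miRNAs without a common seed. Whether these counts differ from those of unrelated miRNAs was therefore not tested. The widest was the miR-29 seed AGCACCA, at 1.23, and the narrowest the seed of miR-221 and miR-222. miR-103 and miR-107, which lie in pantothenate kinase genes, read -0.45 and -0.31.

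On the normalised scale the bright end of the profile differed little. Quantile normalization gives the top ranks of both arrays the same values, so small normalised changes there were partly set by the method. The 15 brightest miRNAs held 53.2% of the signal above background at 6 h and 56.4% in the control, 13 of the 15 brightest at 6 h were also among the 15 brightest in the control, and 14 of the 15 had normalised changes within 0.5 of 0. Without normalization the ratios of their signal above background, 6 h over control, ran from 0.96 to 2.07, with 1.65 for let-7d and 1.64 for let-7f. They were miR-125b-5p, miR-21, miR-23a, miR-23b, miR-26a, miR-214, miR-199a-3p, let-7a, let-7b, let-7c, let-7d, let-7f, miR-466b-1*, miR-466c* and miR-328a*. The exception was miR-328a*, with 31237, 30745, 18762, 26255 and 30832 units at 6 h, against 18946, 9196, 5066, 16961 and 16992 units in the control. Its spots overlapped and were uneven on both arrays, and its change of 0.75 ± 0.35 did not pass.

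The 168 miRNAs detected at 6 h alone were dim, with a median of 62.5 units there. After miR-221* the brightest were miR-382*, miR-337*, miR-31*, miR-299, miR-322, miR-411 and miR-20b-5p, between 127.5 and 97.4 units at 6 h. Of these 7, miR-322 passed the rule, and the other 6 had changes between 0.20 and 0.64. No miRNA was detected in the control alone.

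The change ran with base composition. Across the 355 miRNAs it correlated with the GC content of the mature sequence at r = -0.43, and across the 187 detected on both arrays at -0.40, with -0.32 to -0.48 over the alternatives, as a description across miRNAs of 2 arrays. The median change was 0.31 for the 38 miRNAs below 40% GC, 0.18 for the 105 from 40% to below 50%, -0.004 for the 137 from 50% to below 60% and -0.19 for the 75 at 60% or above. The 5 that were higher all lay below 50% GC, and 6 of the 8 that were lower at or above it. With the GC trend removed, 2 were higher and 8 lower, and 9 of the 13 calls were kept. The 8 lower miRNAs were the same, but of the 5 higher ones miR-365 alone kept its call. The other higher miRNA had not passed before. Runs of GGGG or CCCC, looked for after the sequences had been seen, occurred in 50 of the 355 (14.1%), in 5 of the 8 lower miRNAs and in 1 of the 5 higher ones, miR-365. The median change was -0.14 with such a run and 0.05 without. The runs overlap with GC content by construction, and the part of either in the changes was not tested.

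**Figure D5:**
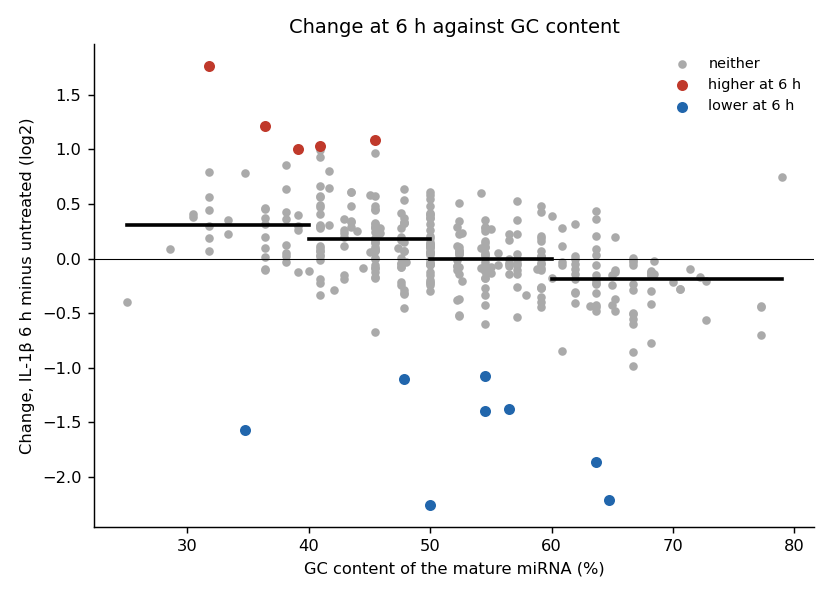
Log2 change at 6 h against the GC content of the mature miRNA, in percent, for the 355 miRNAs compared, with the 5 higher in red and the 8 lower in blue. The points drift downward with GC content (r = -0.43), and the medians of the 4 GC classes go from 0.31 to -0.19.

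The calibration spots also differed between the arrays. Over 23 calibration probes above background on both arrays, the unnormalised log2 difference of 6 h minus control had a median of -0.13 and ran from -1.04 to 0.61. Probes with 3M in their name, taken as mismatched versions, read a median of 4.36% of their 3P partners at 6 h and 2.87% in the control, over 7 pairs. The number of bases by which such a pair differs was not read. Of the marker lists for blood, epithelial, endothelial and liver cells, no member was detected in the control and 1 of each at 6 h, and their summed signals above the empty spots were 34.1 to 51.7 units at 6 h and 0 to 39.3 units in the control. Among these, miR-451, miR-122 and miR-200c were detected on neither array. Of the 6 muscle probes 3 were detected at 6 h and 1 in the control, miR-206, with 937 units at 6 h and 743 units in the control. Of the 5 neural probes 2 were detected at 6 h and 1 in the control, miR-128, with 374 units at 6 h and 306 units in the control. From these 2 lists miR-133b, miR-208, miR-499, miR-9, miR-9* and miR-219-5p were detected on neither array. The part of other cells in the changes was not tested.

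The later arrays share the same control, so their changes are not separate evidence for those at 6 h and are given side by side. The change of miR-146a was 0.99, 1.43 and 2.59 at 6, 12 and 24 h, that of miR-365 1.76, 2.40 and 0.70 and that of miR-10b 1.08, 0.75 and -0.44. That of miR-29c was 1.22, 2.69 and 1.89. For miR-290 the values were -2.25, -3.11 and -0.24 and for miR-1249 -1.87, -2.92 and -3.07. Not every miRNA that passed the rule is shown here. An odd value on the control array would recur in each.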

How the data were processed

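Rat primary chondrocytes, untreated or after 6, 12 or 24 h of IL-1β, were profiled on 4 miRNA arrays, each of 1 sample. Total RNA was extracted with a column kit, small RNAs were kept by filtration, tailed with poly(A) and ligated to a tag stained later, with Cy5 as the dye, per the labels' protocols. The scanner and image software are not given in the sources used here. The spot intensity that the authors deposited is linear, with no background subtracted, since the empty spots hold signal. Because these values carry comma separators they were read as text and turned into numbers. The authors' table gives 1 intensity per miRNA and array, on a common scale whose making is not stated, and served as an alternative after adding 50 and taking log2.

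The deposited spot intensities were corrected with normexp (limma 3.58.1, R 4.3.3, offset 50, fitted on all 3968 spots), quantile-normalised over the miRNA spots of 4 arrays, converted to log2 and averaged per probe. Detection needed 3 of 5 spots above the 95th percentile of the empty spots. A bound sets an undetected level to the lowest detected one on that array (6.90 in the control), or to its own if higher. The offset makes the changes of dim miRNAs smaller, and with an offset of 16 the rule gave 7 higher and 11 lower miRNAs. Python 3.11.15, numpy 2.4.6, pandas 2.3.3 and matplotlib 3.10.9 did the rest. The rule was also tried on simulated data, but no error rate is drawn from that run. With 1 array per group no p-value was computed, and the number of arrays limits the precision. Of the 679 probes, 621 were located on GRCr8 through RefSeq by exact sequence.

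Named are all miRNAs that passed the rule, their opposite arms where probed, the 15 brightest, the 6 nearest to the 2-fold line on each side among those detected on both arrays, the 8 brightest detected at 6 h alone, and members of the lists. Other miRNAs, namely miR-103, miR-107 and the arms of Mir125a and Mir210 that no list holds, were picked after their values were seen. The comparison, the rules and the lists were chosen with earlier results of these data known.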

Additional observations from a re-analysis of the deposited data

How the results depend on the processing

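The counts of higher and lower miRNAs were recomputed under 20 other settings, 3 of them chosen after seeing the data (centring, normalization without the 12 h array, and leaving out the farthest spot). A count under another setting can hold other miRNAs than those reported. The 5 higher miRNAs became 2 with quantile normalization over the 6 h and control arrays alone, 2 without the 12 h array, 2 after GC correction, 3 with detection on both arrays, 3 with the lowest detected level put in for undetected ones, 11 after median scaling, 14 without normalization, 17 after calibration scaling, 21 with a 1.5-fold rule and 22 after centring. The 8 lower became 18 after median scaling, 16 with a 1.5-fold rule and 5 after centring. Under the settings not named, and in the lower count where it is not named, they stayed within 1.5 times of those reported, and no value of a miRNA that passed the rule changed sign. The number compared was 355, against 187 with detection on both arrays, 263 with detection in all 5 spots and 679 without a filter. The relation to GC content kept its sign throughout (-0.32 to -0.48). The control's higher background limits what can be said of the dim miRNAs. No paired analysis was possible because each group has 1 array. Leaving out a replicate was not possible for the same reason.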
